A study of Drosophila melanogaster with 12 samples.

Results

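The genes of the cytoplasmic ribosomal proteins were examined in Kc167 cells, a Drosophila melanogaster cell line that was made from embryos and carries the label female. Members were the protein-coding genes whose symbol begins with RpL or RpS in the Ensembl annotation of the dm6 assembly, written in this case so that the mitochondrial mRpL and mRpS genes stayed out. The rule found 92 of the 13968 protein-coding genes, 54 for the large ribosomal subunit and 38 for the small one. No measured value entered the rule. It leaves out sta and Rack1, which also encode proteins of the small subunit. It takes in genes with symbols ending in -like. Among these are RpL24-like and RpLP0-like, which are named after ribosomal proteins but are related to ribosome assembly factors of yeast.

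The 12 chromatin immunoprecipitation sequencing (ChIP-seq) libraries came from cells that were transfected either without double-stranded RNA (mock) or with double-stranded RNA against LaminB, a protein of the nuclear lamina (LaminB knockdown, dslaminb in the labels). AGO2, the Argonaute protein of RNA interference, was precipitated in 2 mock and 2 knockdown libraries with the antibody of A. Mueller. RNA polymerase II (Pol II) was precipitated in 2 mock libraries with antibody 8WG16, which binds the C-terminal domain of its largest subunit, and the inputs were 4 mock and 2 knockdown libraries. Each ChIP was deposited as 1 list of intervals that combines its libraries. No value below therefore has a replicate error, no test over samples was possible, and the depth of the libraries is unknown. The lists held 5905 Pol II domains, 4201 mock AGO2 peaks and 761 knockdown AGO2 peaks, and Pol II in knockdown cells was not analysed here.

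A eukaryotic ribosome consists of ribosomal RNA and a fixed set of proteins, and growing cells transcribe the genes of these proteins at high rates. In Drosophila many of these genes are Minute loci, where the loss of 1 copy slows development and shortens bristles. Their core promoters commonly carry the TCT element, a run of pyrimidines at the start of transcription, in place of the usual initiator. Several ribosomal proteins have a second gene copy, and such copies are often used mainly in the germ line.

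The sequences at the starts are shown first, because the TCT element is what the promoters of this family are known for. CTTT, the invariant core of the TCT element, was searched on the coding strand at the start used by most transcripts of a gene. It began within 5 bp of that start in 44 of the 92 ribosomal protein genes (47.8%), compared with 786 of all 13968 protein-coding genes (5.63%). Its first base coincided with the annotated start in 0 of the 92 and in 0.501% of all genes, so the count depends on the 5 bp allowed. Among the members with Pol II, the motif was found in 20 of the 40 genes with a mock AGO2 peak and in 22 of the 45 without one. The 6 windows below belong to the members with the strongest mock AGO2 peaks, and their sequence is that of the RefSeq copy of dm6. Each runs 5′ to 3′ from 30 bp before to 15 bp from the start, that base included. Capitals mark CTTT, or the annotated start base alone where CTTT was not found within 5 bp.
RpS5a, chrX:17148250-17148294, minus strand: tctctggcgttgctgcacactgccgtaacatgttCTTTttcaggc
RpS28a, chr3R:30022634-30022678, minus strand: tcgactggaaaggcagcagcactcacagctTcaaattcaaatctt
RpS26, chr2L:18443214-18443258, minus strand: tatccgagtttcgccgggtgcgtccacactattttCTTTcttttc
RpL4, chr3R:27922791-27922835, plus strand: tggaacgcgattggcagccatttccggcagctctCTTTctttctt
RpLP0, chr3L:22075837-22075881, plus strand: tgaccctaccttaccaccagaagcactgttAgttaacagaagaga
RpL34b, chr3R:9401212-9401256, minus strand: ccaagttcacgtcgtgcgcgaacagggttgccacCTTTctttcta

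The next 5 windows, chosen after the values were seen, belong to members without a Pol II domain, with the same use of capitals. CTTT was found in 2 of the 7 members of this kind, and RpS5b is the one among those shown. A window without CTTT says only that these letters were not at the annotated start.
RpL10Aa, chr3R:15037336-15037380, plus strand: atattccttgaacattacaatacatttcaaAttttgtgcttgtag
RpS5b, chr3R:14901549-14901593, minus strand: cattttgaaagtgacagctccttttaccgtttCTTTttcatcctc
RpS10a, chr3R:27652730-27652774, plus strand: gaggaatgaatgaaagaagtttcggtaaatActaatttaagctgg
RpS19b, chr3R:23933516-23933560, minus strand: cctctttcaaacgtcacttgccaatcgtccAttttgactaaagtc
RpS28-like, chr2L:9436774-9436818, plus strand: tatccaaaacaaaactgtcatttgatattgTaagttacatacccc

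Other promoter elements were counted from 250 bp before to 50 bp after the start, on both strands. TATCGATA, the binding site of the replication-related element factor Dref, was found in 28 of the 92 members (30.4%), all of them among the 85 with Pol II, compared with 9.23% of all protein-coding genes and 15.5% of the other genes with Pol II. GGTCACAC, the core of the motif bound by M1BP, was found in 13 members (14.1%), compared with 7.77% of all genes and 14.4% of the other genes with Pol II. TATCGATA was present in 13 of the 40 Pol II-bound members with a mock AGO2 peak (32.5%) and in 15 of the 45 without one (33.3%). GGTCACAC was present in 8 of the 40 (20%) and in 4 of the 45 (8.89%), and no test was made of this difference. These counts describe letters in the reference sequence and not bound sites.

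Pol II lay on nearly all of these genes. A Pol II domain overlapped the body of 85 of the 92 ribosomal protein genes (92.4%, 95% Wilson interval 85.1 to 96.3%), where 49.3% of the other protein-coding genes had one (6839 of 13876). All 85 also had a domain over a transcript start (100%, 95.7 to 100%), compared with 92.3% of the other Pol II-bound genes (6309 of 6839). The intervals here and below count genes only and cover neither replicates nor the shared domains of neighbouring genes. By subunit, 51 of 54 genes of the large and 34 of 38 of the small subunit were bound.

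**Figure D1:**
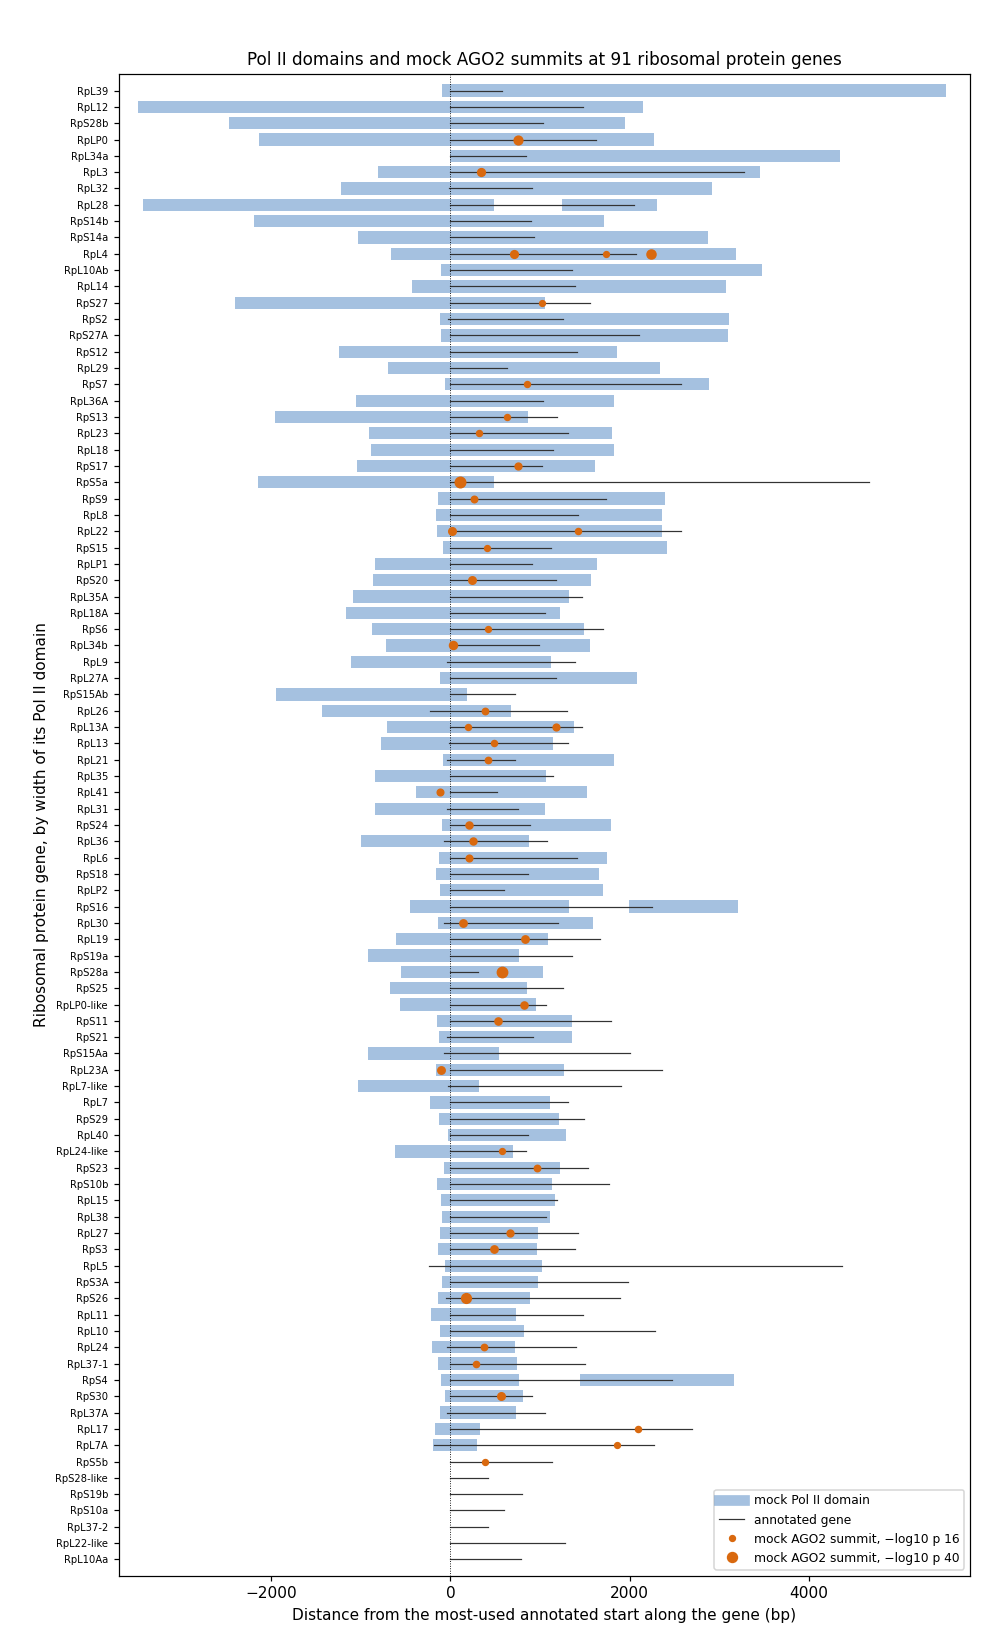
Pol II domains (blue bars), gene spans (black lines) and mock AGO2 summits (orange points, larger with higher −log10 p) at 91 of the 92 ribosomal protein genes, plotted by distance in bp from the most-used annotated start with the gene running to the right. The 84 genes drawn with Pol II have a domain over a start, 40 of the genes drawn carry at least 1 AGO2 peak, and the lowest 7 genes have no domain.

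The 7 genes without Pol II were RpL10Aa, RpL22-like, RpL37-2, RpS5b, RpS10a, RpS19b and RpS28-like. Each of them is 1 copy of a protein that has another gene, and the other copy had Pol II in every case. RpL22-like, RpS5b, RpS10a and RpS19b are known for use in the germ line. The distance from 6 of them to the nearest mock AGO2 peak ranged from 395 bp (RpS19b) to 131 kb (RpS28-like). RpS5b was the exception, with an AGO2 peak over its start (chr3R:14900959-14901603) at a −log10 p of 16.3, rank 3794 of the 4201 mock peaks and a fold enrichment of 2.97 over input.

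Across the symbols, 27 members fell into 13 groups of one name stem, and 20 of these 27 were Pol II-bound. All 65 members without such a relative were bound. Some bound members of these groups shared their domain with neighbouring genes. The domain at RpS15Ab, a small-subunit copy on 2R, was 2135 bp wide and covered starts of Lsm10, Prosbeta5 and dgo, but reached only 184 bp into RpS15Ab. The domain at RpL7-like covered starts of CG34164 and JhI-21 and reached 323 bp past the start of RpL7-like, over 18% of the gene. RpL34a had a domain of 4353 bp that began 4 bp before its start and held starts of 5 other genes, whereas the domain of its relative RpL34b began 716 bp before the start. RpS14a and RpS14b, a tandem pair of near-identical genes on X, lay under 1 domain of 3906 bp. Reads that fit both copies would have been lost with the mapping-quality filter, so the absence of AGO2 peaks from this pair is uncertain.

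The remaining pairs fell into several patterns. Of the RpL10A, RpS10 and RpS19 copies, RpL10Ab (3583 bp), RpS10b (1290 bp) and RpS19a (1677 bp) carried Pol II, and none of these 3 had an AGO2 peak. RpL22, RpL37-1 and RpS5a carried both Pol II and mock AGO2, unlike RpL22-like and RpL37-2, which had neither. In 2 groups both genes had Pol II and a mock peak, but the second gene of each is related to assembly factors and is not a plain copy. RpL24 and RpL24-like had domains of 919 and 1309 bp and peaks at a −log10 p of 18.7 and 15.9, and RpLP0 and RpLP0-like had peaks at 33.0 and 23.6. RpL7 and RpS15Aa had domains of 1347 and 1468 bp and, like RpL7-like and RpS15Ab, no AGO2 peak. Of the 3 RpS28 genes, RpS28a had Pol II and AGO2, RpS28b Pol II alone and RpS28-like neither. The domain of 1582 bp at RpS28a and its AGO2 peak also covered starts of Axn and Mgat2. Neither signal can therefore be assigned to RpS28a alone.

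The domains were wide. The widest Pol II domain at a start had a median of 1915 bp over the 85 genes, with quartiles of 1347 and 2834 bp, while the median was 935 bp for the other 6309 genes with a domain at a start. A domain of 2 kb or more lay at 41 of the 85 (48.2%) and at 10.4% of the others. Among genes of at most 2 kb the medians were 1915 bp (69 genes) and 1000 bp (1928 genes). In 56 of the 85 the domain also covered a start of another protein-coding gene. Where it covered starts of 1 gene only, the median was 1198 bp at 29 of the 85 ribosomal protein genes and 551 bp at 3036 of the 6309 other genes.

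**Figure D2:**
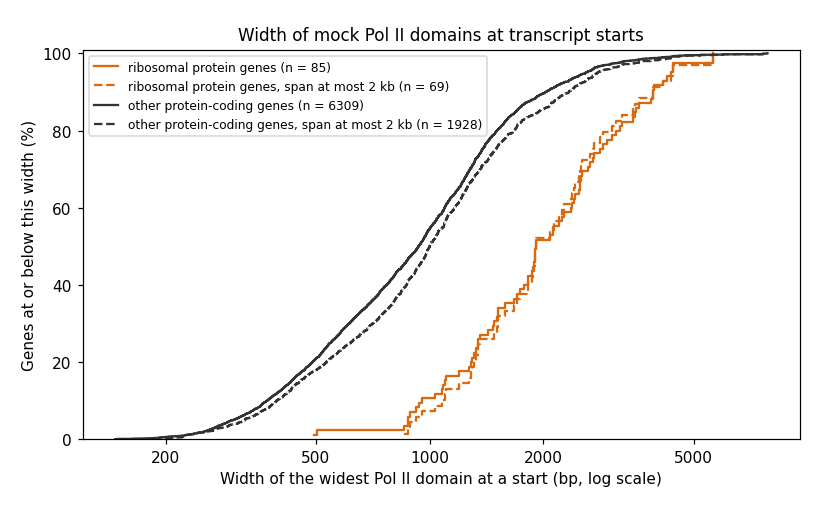
Cumulative share of genes (y axis, %) at or below a given width of the widest mock Pol II domain at a start (x axis, bp, log scale), for ribosomal protein genes (orange) and other protein-coding genes (black), with genes of at most 2 kb as broken lines. The curves of the ribosomal protein genes lie to the right, with medians of 1915 bp against 935 bp over all genes and 1915 bp against 1000 bp in short genes.

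The widest domain of the group, 5630 bp on 2R, held 2 members, RpL12 and RpL39, together with starts of eEF5, a translation factor, and ppk29. It was followed by RpS28b with 4414 bp and RpLP0 with 4411 bp. The narrowest were at RpL7A (493 bp), RpL17 (502 bp) and RpL37A (854 bp). RpL17 and RpL7A are both on X and host small nucleolar RNA genes in their introns.

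Along the gene, the domains reached a median of 1292 bp downstream of the most-used start. Upstream they reached a median of 429 bp, and 121 bp in the 29 genes whose domain held no other gene's start. In 41 of the 85 genes the domain ran past the annotated end of the gene, a count that was not made for the other genes. Domains covered a median of 93.4% of the gene body, and 45 genes (52.9%) had at least 90% of the body covered. In the other Pol II-bound genes the median was 14.5%, and 4.34% of them had at least 90% covered. Ribosomal protein genes are short, with a median span of 1361 bp against 3153 bp for the other bound genes. Among genes of at most 2 kb the median cover was 100% for ribosomal protein genes and 33.1% for the others.

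RpS5a and RpL5 are the longest members, with spans of 4677 and 4606 bp. Pol II covered the first 484 bp of RpS5a and ended 1023 bp from the start of RpL5. RpL28, RpS16 and RpS4 each had 2 domains, 1 at the start and 1 that ran past the end of the gene.

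AGO2, best known for cutting target RNA in the cytoplasm, has also been found on chromatin in Drosophila. A mock AGO2 peak overlapped a transcript start of 16 of the 85 Pol II-bound members (18.8%, 11.9 to 28.4%), beside 20.2% of the other Pol II-bound genes (1383 of 6839). A mock peak overlapped the body of 40 of the 85 (47.1%, 36.8 to 57.6%), beside 39.3% of the others (2687 of 6839). In 24 of these 40 genes the peak lay in the body and overlapped no annotated start. Some of these peaks came close to a start, such as that of RpS20, which began at chr3R:20822186 beside the start at 20822181. Both background shares lay inside the intervals for the members.

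**Figure D3:**
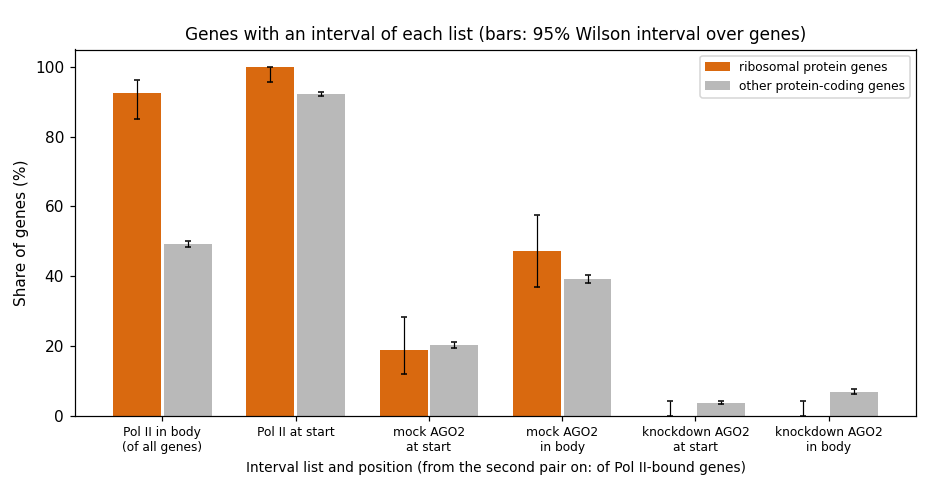
Share of genes (y axis, %) with an interval of each list (x axis) for the 92 ribosomal protein genes (orange) and the other protein-coding genes (grey), with Pol II in the body given over all genes and the other 5 pairs over Pol II-bound genes. Error bars are 95% Wilson intervals over genes. Pol II in the body stands at 92.4% against 49.3%, and mock AGO2 at a start at 18.8% against 20.2%.

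How the AGO2 shares compared depended on gene length and on what counted as a start. With starts widened by 250 bp on each side the shares were 37.6% for the members and 33.6% for the others. With the summit plus and minus 100 bp in place of the peak, 3 of 85 members (3.53%) and 706 of 6839 others (10.3%) had AGO2 at a start. Among genes of at most 2 kb a mock peak lay at a start of 12 of 69 members (17.4%) and of 10.6% of 2151 others, and in the body of 31 members (44.9%) and 26.6% of the others. Among genes with a Pol II domain of 2 kb or more at a start, a mock peak lay at a start of 6 of 41 members (14.6%, 6.88 to 28.4%) and of 172 of 656 others (26.2%, 23 to 29.7%). This split by domain width was chosen after the data were seen.

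By subunit, a mock peak lay at a start of 9 of 51 genes of the large subunit (17.6%) and 7 of 34 of the small one (20.6%), and in the body of 23 (45.1%) and 17 (50.0%). Of the acidic stalk proteins, which recruit translation factors to the large subunit, RpLP0 had a peak with its summit 756 bp from the start in coding sequence. RpLP1 and RpLP2 had Pol II domains of 2486 and 1820 bp and no AGO2 peak. RpL40 and RpS27A, whose proteins are made as fusions with ubiquitin, both had Pol II and no AGO2 peak.

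The 16 Pol II-bound members with a mock peak at a start were RpL13A, RpL19, RpL22, RpL23A, RpL30, RpL34b, RpL36, RpL37-1, RpL41, RpS5a, RpS7, RpS9, RpS23, RpS26, RpS28a and RpS30. The 24 with a peak in the body that overlapped no start included RpL3, RpL4, RpL6, RpS3 and RpS6. This division rests on the overlap of 1 bp. The RpL6 peak, for example, ended at chr3R:31596197, just short of the start at 31596204. RpS6 is the target of S6 kinase in growth signalling, and RpS3 lies at the messenger RNA entry of the small subunit and also serves in DNA repair.

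The 4 strongest members had peaks between ranks 405 and 718 of the 4201 mock peaks. At RpS5a the peak at chrX:17147966-17148507 lay over the start, with its summit in the 5′ UTR 112 bp downstream. It had a −log10 p of 43.7, a fold enrichment of 4.48 and rank 405 of 4201. The peak over RpS28a (chr3R:30021759-30023121) followed at rank 428 with a −log10 p of 42.6. Its summit was not in RpS28a but in the 5′ UTR of Mgat2, and starts of Axn and Mgat2 were also under this peak.

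RpS26, which encodes a protein near the messenger RNA exit of the small subunit, came next with rank 547 (chr2L:18442629-18443306). Its −log10 p was 38.9, its fold enrichment 4.03, and its summit lay 179 bp from the start in coding sequence. RpL4 was the member with the most mock peaks, 3 in all. The strongest of them (chr3R:27924880-27925209, rank 718, −log10 p 35.0) had its summit past the end of RpL4, over a noncoding exon, with a start of mino under the peak. The other 2 peaks of RpL4 had summits in its coding sequence, at ranks 1284 and 4125. RpL13A and RpL22 had 2 peaks each, and each of the other 38 genes with a peak had 1.

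After RpLP0 (rank 834, −log10 p 33.0), the strongest were RpL34b, RpL3, RpL22, RpS30 and RpS20, with −log10 p between 25.9 and 28.7. RpL3, which lies at the peptidyl transferase centre, had its summit in coding sequence 347 bp from the start. RpL34b and RpL22 had theirs in the 5′ UTR, 24 and 18 bp from the start. RpS20 and RpS30 had summits in coding sequence at 244 and 563 bp.

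Over the 44 distinct mock peaks at Pol II-bound members the median −log10 p was 21.2, with a range of 15.6 to 43.7, and the median fold enrichment was 3.13. The 3577 peaks at the other Pol II-bound genes had medians of 21.4 and 3.17, but reached a −log10 p of 195. These values depend on depth and serve here to rank peaks within the list. Peaks over a member start were wide, with a median of 1006 bp over 16 peaks against 567 bp over 1371 peaks at starts of the others.

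**Figure D4:**
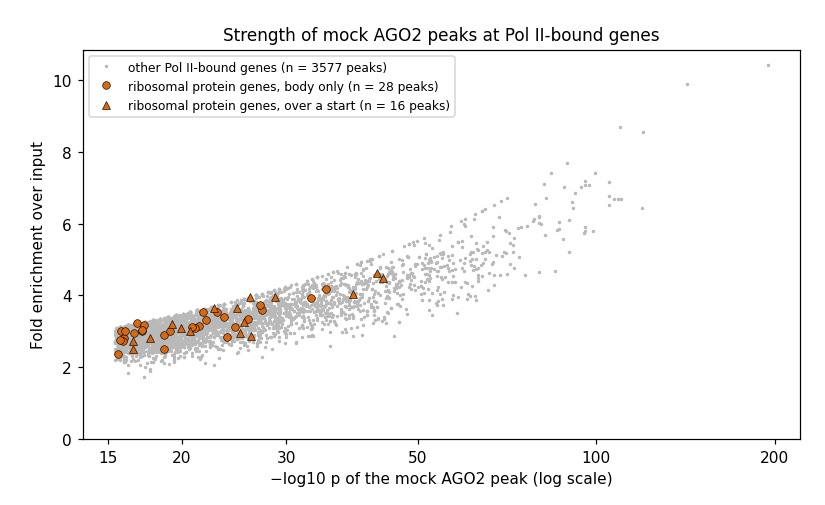
Fold enrichment over input (y axis) against −log10 p (x axis, log scale) of mock AGO2 peaks at Pol II-bound genes, with 3577 peaks of other genes in grey, 28 body peaks of ribosomal protein genes as orange circles and 16 peaks over their starts as triangles. The ribosomal protein peaks lie in the lower part of the range, none above a −log10 p of 43.7.

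The summits lay mostly inside the genes and downstream of the start. Over all 45 mock peaks at members, the median summit position was 483 bp from the most-used start, and 2 summits, at RpL23A and RpL41, lay upstream of it. Coding sequence held 32 of the 45 summits (71.1%), introns 6, 5′ UTRs 4, noncoding exons 2 and intergenic sequence 1. Among the 3577 peaks of other Pol II-bound genes 38.4% of summits were in coding sequence. In genes of at most 2 kb, 24 of the 30 summits inside a bound member (80.0%) and 80.3% of the 524 summits inside other bound genes were in the gene's own coding sequence. Coding sequence made up 38.5% of these ribosomal protein genes and 61.7% of the other short genes. Of the 45 summits 42 (93.3%) were inside a Pol II domain, compared with 62.2% for the peaks of other Pol II-bound genes. These shares were not adjusted for cover by the domains, which had a median of 93.4% of the body in bound members and 14.5% in the others. The 3 summits outside were at RpS5b, which has no Pol II domain, and at RpL17 and RpL7A, the genes with the narrowest domains.

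In LaminB knockdown cells no ribosomal protein gene had a listed AGO2 peak. The count was 0 of the 85 at a start and 0 of the 85 in the body, with a 95% Wilson interval of 0 to 4.32%. A limit of 3 counts, another convention for a count of 0, comes to 3.53%. In the other Pol II-bound genes 3.71% had a knockdown peak at a start (254 of 6839) and 6.95% in the body (475 of 6839). The Wilson interval of the members holds the first of these shares and not the second. Short genes of any kind were rarely listed: among genes of at most 2 kb, 8 of 2151 others (0.372%) had a knockdown peak in the body, against 0 of 69 members. A loss of AGO2 from these genes therefore cannot be told apart from the shorter list. The lowest −log10 p in the knockdown list was 19.8, and 26 of the 45 mock peaks at members (57.8%) were at or above this value in mock, as were 59.0% of the mock peaks of other bound genes. Fewer ranked within the first 761 mock peaks, the length of the knockdown list: 4 of the 45 at members (8.89%) and 632 of the 3577 at other bound genes (17.7%).

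None of the 45 mock peaks at members overlapped a knockdown peak, while 535 of 3577 peaks of other Pol II-bound genes did (15%). Among peaks of other genes ranked no higher than the RpS5a peak, 355 of 3248 (10.9%) overlapped one. Knockdown peaks came near some members. The nearest lay 242 bp from RpS9, 763 bp from RpS28b and 1222 bp from RpLP0-like. For 8 of the 92 genes a knockdown peak lay within 10 kb, a count that was not made for the other genes. Over the Pol II-bound members the median distance was 82841 bp, with a lower quartile of 45225 bp. Over the other bound genes these values were 57708 and 18176 bp.

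Ribosomal protein genes were also compared with other genes of translation, in lists chosen by symbol or name. The mitochondrial ribosomal proteins, which serve the ribosome of that organelle, were Pol II-bound in 68 of 73 genes (93.2%), with a median domain width of 1148 bp. A mock AGO2 peak lay at a start of 7 of these 68 (10.3%) and in the body of 14 (20.6%). The strongest was at mRpL53, with a −log10 p of 47.0 and rank 325. Of 32 ribosome assembly factors listed, 29 were found in the annotation and 28 were bound. A mock peak lay in the body of 9 of the 28 (32.1%), among them Nop60B, the pseudouridine synthase of ribosomal RNA (rank 2895). The 9 also took in pes (rank 732), which is the gene peste and not Pescadillo, and the nucleoporin gene Nup44A (rank 1249). The share is therefore not that of assembly factors alone.

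The initiation factors, which bring the ribosome to messenger RNA, were bound in 33 of 44 genes. A mock peak lay at a start of 14 of the 33 (42.4%) and in the body of 20 (60.6%). The strongest was at the helicase gene eIF4A, where the Pol II domain was 7856 bp wide, with a −log10 p of 57.4 and rank 176. The elongation factors were bound in 7 of 8 genes with a median domain width of 2395 bp. None of the 7 had a mock peak at a start, and eEF1alpha1 and eEF2 had one in the body. The small-subunit genes sta and Rack1, left out by the symbol rule, both had Pol II and a mock peak at a start, at ranks 1545 and 2234. The only knockdown peaks in these lists were 2 in the body of eIF5B, the stronger at rank 222 of 761. The lists were not matched for gene length. Among all other bound genes of at most 2 kb, 10.6% had a mock peak at a start and 26.6% in the body. No test was made of the differences between lists.

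**Figure D5:**
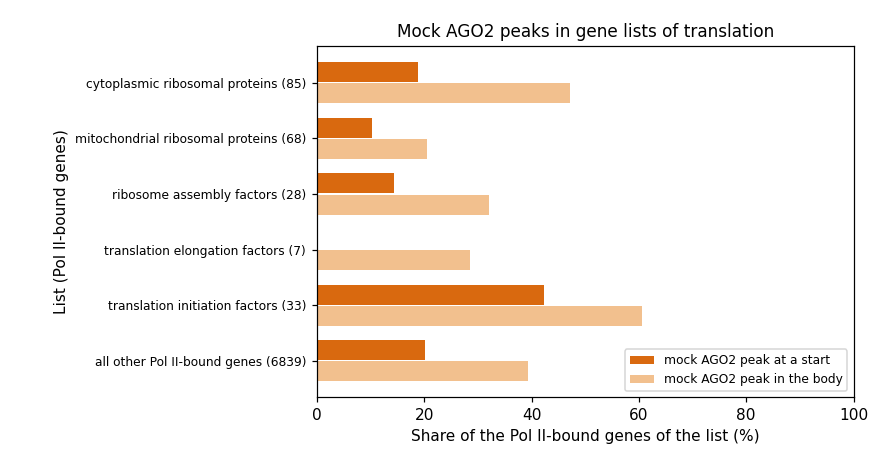
Share of the Pol II-bound genes (x axis, %) with a mock AGO2 peak at a start (dark) or in the body (light) in lists of translation genes (y axis, number of bound genes in brackets). Initiation factors stand at 42.4% and 60.6%, cytoplasmic ribosomal proteins at 18.8% and 47.1%, mitochondrial ribosomal proteins at 10.3% and 20.6%, and all other bound genes at 20.2% and 39.3%. The lists were not matched for gene length.

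Many members carry genes of small nucleolar RNAs, which guide the modification of ribosomal RNA, within their span and on the same strand. There were 28 such hosts (30.4% of 92) with 74 small nucleolar RNA genes, compared with 56 hosts (0.404%) among the other protein-coding genes. RpS5a held the most, 14, followed by RpS7 with 7. All 28 had a Pol II domain. A mock AGO2 peak lay in the body of 15 of them (53.6%), and of 26 of the 53 bound hosts among the other genes (49.1%).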

How the data were processed

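AGO2 and Pol II ChIP and input libraries of Kc167 cells were grouped by sample title. For the lists, cutadapt 1.10 was used for trimming, Bowtie2 2.2.8 for alignment to dm6, SAMtools 1.3.1 for removal of multimapping reads and Picard 2.5.0 for duplicates, and the authors called intervals on pooled libraries with MACS2 2.1.1.20160309. Each AGO2 list holds as many top peaks as passed the irreproducible discovery rate between pseudoreplicates, a number that varies with depth and enrichment. Broad Pol II calls also found in a replicate were kept and merged with bedtools 2.25.0. The deposited AGO2 lists give a fold enrichment (a ratio to local input background), the −log10 p of the caller, a display score and a summit, and a −log10 q that was not used. The deposited Pol II list gives positions only. Columns have no header and were read by the caller's layout. No read counts are given, so depth is unknown.

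Genes came from Ensembl release 115 (build 6.54) and sequences from the RefSeq copy of the same assembly, in which all 92 members begin their coding sequence with ATG. Genes on 7 chromosomes were used, without transposon insertions. An interval was counted at a start or in a body when it overlapped by at least 1 bp. Coordinates count from 1. Shares carry 95% Wilson intervals from scipy 1.17.1 (Python 3.11.15, numpy 2.4.6, matplotlib 3.10.9), and the overlap code was tested on simulated intervals. No test was run, because each condition is 1 pooled list and genes are not replicates.

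Members, gene lists and alternatives were chosen with earlier results of these data known. The genes named are those without Pol II, those with a knockdown peak, the 10 with the strongest mock peaks, the 3 widest and 3 narrowest Pol II domains, duplicated members, the stalk proteins and those with sequences shown. Other genes, such as RpL5, RpL28, RpL40 and those of the other lists, were named after their values were seen. The values of 1 member are not reported here, and it enters only the counts and medians over all members.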

Additional observations from a re-analysis of the deposited data

How the results depend on the processing

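The 6 shares were recomputed under 47 alternatives listed beforehand and 8 chosen after the data were seen, and 45 of the 55 values stayed within the reported Wilson interval. This tally is not a measure of stability, because many of the values could not move. No member had a knockdown peak, so stricter settings and gene subsets could only return 0 for the knockdown shares. The 100% with Pol II at a start was likewise fixed for wider starts and gene subsets. The share of ribosomal protein genes with Pol II in the body was 100% without duplicated and -like members. The share with Pol II at a start was 92.4% with all 92 genes in the denominator. The share with a mock AGO2 peak at a start was 37.6% and 43.5% with starts widened by 250 and 500 bp. It was 3.53% with summits plus and minus 100 bp (10.3% in the other bound genes). With the 761 highest-ranked peaks it was also 3.53% (5.5% in the others), and in the stronger 50% of the list 11.8% (13.3%). The share with a mock peak in the body was 23.5% in the stronger 50%, 29.4% when peaks below the weakest knockdown −log10 p were left out and 4.71% with the 761 highest-ranked. Shorter lists give lower shares by construction, and the cause of the other changes was not tested. Both knockdown shares stayed at 0 in each alternative run, of which only the wider starts could have changed the share at a start.

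The members and the other bound genes changed order in 5 alternatives. At starts, the members were higher with starts widened by 250 bp (33.6% in the others) and 500 bp (39.8%), and in genes of at most 2 kb. In the body, the members were lower with the 761 highest-ranked peaks (8.14% in the others) and at Pol II domains of 2 kb or more (43.9% against 50.5%). No paired analysis was possible because the libraries of a condition were combined before deposit, which also meant that leaving out single libraries was not an option. Every comparison with the knockdown list is limited by the unknown depth.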

Other observations

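The ribosomal protein genes were spread over the genome, with 19 on 2L, 21 on 2R, 14 on 3L, 23 on 3R, 14 on X and 1, RpS3A, on chromosome 4. All 14 on 3L and all 14 on X were Pol II-bound, while 4 of the 7 unbound copies were among the 23 genes on 3R. A mock AGO2 peak lay in the body of 14 of the 19 bound genes on 3R (73.7%), where 41.1% of the other bound genes of 3R had one. On 2L it lay in the body of 6 of 18 (33.3%), beside 33.1% of the others, and on X in 7 of 14 (50.0%), beside 47.2%. The shares were also close on 2R, with 8 of 19 (42.1%) beside 40.2%, and on 3L, with 5 of 14 (35.7%) beside 34.7%. No test was made of the differences between chromosomes.

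A start of another protein-coding gene lay within 500 bp of a start of 37 of the 92 members (40.2%), compared with 30.8% of the other protein-coding genes. Among the bound members a mock AGO2 peak was found at a start of 6 of the 36 with such a neighbour (16.7%) and of 10 of the 49 without one (20.4%). In the other bound genes these shares were 16.5% (538 of 3266) and 23.6% (845 of 3573). In the 45 bound members without a mock AGO2 peak in the gene, the nearest one lay at a median distance of 8194 bp, and at 4946 bp in the other bound genes without a peak.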
